A study of Mus musculus with 12 samples.

Results

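The Fc gamma receptors of myeloid cells and the inhibitory ligand and receptor pairs that restrain these cells were followed in the retinal pigment epithelium (RPE) of WT and rd6 mice. The genes were picked by symbol, and all 10 of them are among the 28591 genes of the deposited table: *Fcgr1*, *Fcgr3*, *Fcgr2b*, *Fcer1g*, *Cd200*, *Cd200r1*, *Cd200r4*, *Cd47*, *Sirpa* and *Pirb*. RNA of the RPE was sequenced from 6 WT mice (C57BL/6J) and 6 rd6 mice, which carry the rd6 allele of *Mfrp* on both chromosomes (*Mfrp* rd6/rd6), at 1 mo of age. A library holds the RPE of both eyes of a mouse, recovered by soaking the eyecup in a cell reagent of a published RPE isolation protocol once the anterior segment and the neural retina had been taken out. No sort by a marker is described, and the allele was carried by every cell of the mouse. The labels do not name littermates, so the *Mfrp* genotype and any other difference between the lines cannot be told apart. Between 28907262 and 33152725 reads per library were counted on genes, and a level below is a normalized count, the read count divided by the size factor of the library.

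Fc gamma receptors bind the constant part of immunoglobulin G on coated particles. Fcgr1 and Fcgr3 are activating and need the chain encoded by *Fcer1g*, whose cytoplasmic activation motif (ITAM) is phosphorylated to recruit the kinase Syk, whereas Fcgr2b carries an inhibitory motif (ITIM) that recruits the phosphatase Inpp5d. Checkpoint pairs work in the same way on the inhibitory side: Cd200 on endothelial cells and neurons engages Cd200r1 on myeloid cells, the widely expressed Cd47 engages Sirpa, and MHC class I molecules engage Pirb. In the healthy eye, resident macrophages of the choroid and microglia of the retina are the cells best known to carry Fc receptors.

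The RPE label was held against 10 RPE markers. Their summed level was 1014799 to 1515227 normalized counts in WT and 1119469 to 1455232 in rd6 libraries. Most of this sum was *Ttr*, with 703801 ± 100426 in WT and 834620 ± 88726 in rd6 (SD, n = 6 each), which did not differ detectably (limma q = 0.302). *Rpe65* (log2 fold change -0.79), *Rlbp1* (-0.46) and *Lrat* (-0.98), 3 of the 10, were lower in rd6 (limma q below 0.05). Rod markers were also present, 4 of 10 lower in rd6, so the preparations held RNA of other cells. *Mfrp* itself had 30132 to 45442 normalized counts in WT and 20442 to 29732 in rd6 libraries. WT replicate 4 and rd6 replicate 5 had the most *Krt5*, a keratin of surface epithelia, with 63798 and 35506 normalized counts. *Krt5* was also high in rd6 replicate 1 (19610) and did not pass 5413 in any other library. Inner retina neuron markers had 9922 normalized counts in rd6 replicate 5, against 2346 to 3746 in the other rd6 libraries. Levels of *Xist* and *Ddx3y* gave 2 female and 4 male mice in each genotype. In such bulk RNA, more cells of a type and more RNA per cell cannot be told apart.

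Of the 10 genes, 9 reached an average of 10 normalized counts over the 12 libraries and were tested, and *Cd200r1* was below that limit. *Cd200r4* reached it only through its rd6 libraries, so it had to differ, and it is left out of the counts that follow. All 8 others were higher in rd6 at an adjusted p (limma q, Benjamini-Hochberg over all genes tested) below 0.05, where 11.4% of the 17768 genes tested were higher and 11.6% lower, and 10.9% of the 17532 genes with a WT mean of 10 or more were higher. With a log2 fold change of at least 0.81 required as well, 4 of them passed (*Fcer1g*, *Fcgr1*, *Fcgr2b* and *Fcgr3*), against 4.69% of all genes in this direction and 2.12% in the other. In 5 of the 8, these 4 and *Sirpa*, no WT library reached the lowest rd6 library. Such a gap was found in 5.77% of all genes tested, and one in the other direction in 5.67%. The median log2 fold change of the 8 was 1.20, against 0.00 over all genes. The calls of *Cd200* and *Pirb* were lost in 6 and 15 of 24 alternative settings, and those of the other 6 in none that tested them.

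**Figure D1:**
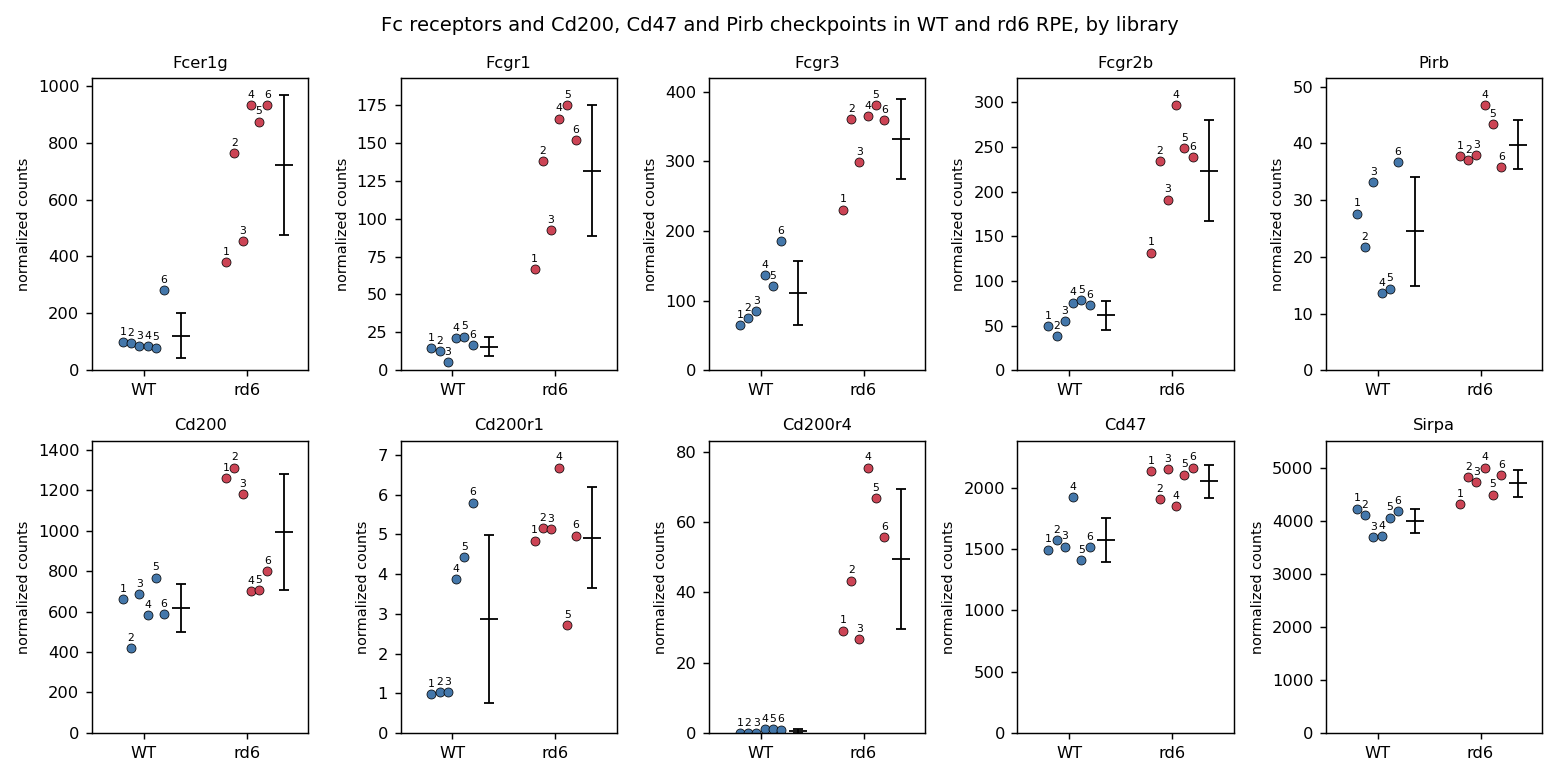
Normalized counts (vertical axes, linear, from 0) of each of the 10 genes in the 6 WT (blue) and 6 rd6 (red) libraries, numbered by replicate, with the group mean and SD as bars beside the points. The groups are apart for *Fcer1g*, *Fcgr1*, *Fcgr3*, *Fcgr2b*, *Cd200r4* and *Sirpa*, and rd6 replicates 1 to 3 of *Cd200* lie at 1179 normalized counts or more while replicates 4 to 6 lie near the WT libraries.

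*Fcgr1*, *Fcgr3* and *Fcer1g*, the gene of their common chain, rose severalfold. *Fcgr1* (ENSMUSG00000015947, chr3:96282909-96293969 of GRCm38, minus strand), the high-affinity receptor for immunoglobulin G, had 5.19 normalized counts in the lowest, 15.6 in the median and 22.1 in the highest WT library, and 66.9, 145 and 175 in rd6. The lowest rd6 library was replicate 1 and the lowest WT library replicate 3, with 69 and 5 reads. Its mean was 15.4 ± 6.26 in WT and 132 ± 43.1 in rd6 (SD, n = 6 each), the largest change of *Fcgr1*, *Fcgr2b* and *Fcgr3* (log2 fold change 3.06, standard error (SE) 0.34, limma q = 3.6e-05).

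*Fcgr3* (ENSMUSG00000059498, chr1:171051174-171064935, minus strand), the low-affinity activating receptor, ran from 65.1 over a median of 103 to 186 normalized counts in WT and from 231 over 360 to 381 in rd6. Replicate 6 was the highest WT library and replicate 1 the lowest rd6 library, and the groups did not overlap. The mean was 111 ± 45.7 in WT and 332 ± 57.3 in rd6 (SD, n = 6 each; log2 fold change 1.65, SE 0.24, limma q = 0.00032). Of the 100-base stretches of its transcripts, 2.54% also occur in *Fcgr2b*, so that a small part of the reads of this pair is uncertain.

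*Fcer1g* (ENSMUSG00000058715, chr1:171229572-171234365, minus strand) encodes the common chain, without which Fcgr1 and Fcgr3 do not reach the cell surface in amount. It had 79.7 normalized counts in the lowest, 89.5 in the median and 282 in the highest WT library, against 379, 819 and 932 in rd6. A single WT library, replicate 6, stood above the other 5, which did not pass 98.6, and rd6 replicates 1 and 3 were the lowest of their group. With means of 121 ± 79.5 and 723 ± 246 (SD, n = 6 each), the log2 fold change was 2.66 (SE 0.33, limma q = 9.2e-05).

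The inhibitory receptor gene of the family rose with them. *Fcgr2b* (ENSMUSG00000026656, chr1:170958617-170976547, minus strand), which dampens the activating receptors, had 38.2, 63.7 and 78.6 normalized counts in the lowest, median and highest WT library and 132, 236 and 297 in rd6. As for the activating receptors, rd6 replicate 1 was the lowest of its group and still lay above every WT library. The mean went from 61.6 ± 16.4 to 223 ± 56.2 (SD, n = 6 each; log2 fold change 1.85, SE 0.22, limma q = 6.8e-05). An antisense gene, *Gm38204*, shares 155 exonic bases with *Fcgr2b*, and the sources used here do not say if reads were counted by strand.

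The promoter of *Fcgr2b*, the inhibitory side of the balance, is shown as the 250 bases before the RefSeq start (GRCm38.p6; chr1:170976072-170976321), 5′ to 3′ on the strand of the gene. The capitals mark, on the opposite strand and 35 bases before the start, GGAA and GAAA with 2 bases between them, a composite of an ETS and an IRF site, which 2.30% of all 32851 RefSeq promoter windows of this length hold.
Fcgr2b: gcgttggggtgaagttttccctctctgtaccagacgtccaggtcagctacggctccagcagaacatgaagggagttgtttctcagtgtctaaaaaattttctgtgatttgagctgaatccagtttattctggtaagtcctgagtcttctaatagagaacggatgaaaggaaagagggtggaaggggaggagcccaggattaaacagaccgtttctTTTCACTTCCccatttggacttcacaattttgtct
This RefSeq start lies 476 bases after the first GENCODE start of the gene and 56 after the nearest, so the window is part of the annotated gene. The match describes letters in a window and no binding was measured. Entries exist for 8 of the 10 genes, and the search on both strands found this motif in no other of them.

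The balance between the activating and the inhibitory receptors was compared as the log2 ratio of *Fcgr1* plus *Fcgr3* reads to *Fcgr2b* reads, 1 of 4 ratios tested. It was 1.61 to 2.77 in the WT and 1.79 to 2.25 in the rd6 libraries, a log2 difference of 0.07 (two-sided exact permutation test over all splits into 6 and 6, p = 0.589, adjusted over the 4 ratios 0.589). The groups overlapped fully, and a difference was not detectable. Within the 3 receptors the composition moved: *Fcgr1* made up 3.57% to 11.5% of their summed normalized counts in WT and 15.6% to 21.8% in rd6 libraries. This share, which was not tested, was 8.34% ± 2.96 in WT and 18.7% ± 2.51 in rd6 (SD, n = 6 each). The share of *Fcgr3* was 58.2% ± 5.75 and 48.9% ± 3.35, and that of *Fcgr2b* 33.5% ± 4.58 and 32.3% ± 1.90.

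Against *Tyrobp*, the gene of the other ITAM chain of myeloid cells (Dap12), *Fcer1g* rose less. There were 0.592 to 1.11 *Fcer1g* reads per *Tyrobp* read in the WT libraries and 0.319 to 0.348 in the rd6 libraries. The ratio was 2.42-fold lower in rd6 (log2 difference -1.28, two-sided exact permutation p = 0.00216, the smallest that 6 against 6 allow, adjusted 0.00433). In rd6 it was nearly constant, with an SD of 0.04 on the log2 scale against 0.36 in WT. *Tyrobp* itself went from 140 ± 58.1 to 2156 ± 707 normalized counts (SD, n = 6 each), the largest change of its list.

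Macrophage markers moved with the Fc receptor genes. Of the 20 markers of microglia and macrophages, 16 were higher in rd6 and none lower (limma q below 0.05), or 15 of 19 without *P2ry13*, whose WT mean of 7.53 let it pass the limit on low values only through rd6. The median log2 fold change of the 19 was 1.64. Their summed level without *Csf1r* was 2706 to 4058 normalized counts in WT and 10454 to 21927 in rd6 libraries, and no marker of the list was at 0 in either group mean. Per 100 normalized counts of this sum, the 3 receptors together had 4.21 to 7.18 in WT and 3.76 to 4.58 in rd6 libraries, ranges that overlapped, with the rd6 libraries at the low end. The part of macrophage number in the receptor values was not tested.

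*Csf1r*, the receptor of macrophage colony stimulating factor, was an exception in this list. Its level was 17256 ± 2183 normalized counts in WT and 18740 ± 1810 in rd6 (SD, n = 6 each), and it was not called (log2 fold change 0.12, limma q = 0.385). Since *Csf1r* was not called while 16 markers of the list rose, reads per *Csf1r* read are no value per macrophage here. The 3 receptors had 0.00694 to 0.0182 reads per *Csf1r* read in WT and 0.0245 to 0.0497 in rd6, 3.42-fold more (log2 difference 1.78, two-sided exact permutation p = 0.00216, adjusted 0.00433). *Mrc1*, *Lyve1* and *Cd163*, markers of perivascular and tissue macrophages, were not called either.

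Markers of other carriers of Fc receptors were also summed. Those of B and plasma cells had 339 to 4786 normalized counts in WT and 354 to 2243 in rd6 libraries, most of it *Sdc1*, which epithelial cells also express and which reached 4686 in WT replicate 4. Those of T and NK cells had 36.1 to 73.8 and 39.8 to 107. None of the 3 tested B and plasma cell markers and of the 2 tested T and NK cell markers was called, and the other 13 of these 18 genes were under the limit on low values. Of the granulocyte and mast cell markers, *S100a8* and *Csf3r* were higher, 2 of 4 tested, while *Ly6g* and *Mpo*, which define neutrophils, had at most 1 read in any library. *Cxcr2*, a chemokine receptor of neutrophils under the limit on low values and so not tested, averaged 0.852 ± 1.65 normalized counts in the WT libraries but 9.91 ± 3.72 in those of rd6 (SD, n = 6 each). The sum of this list was 818 to 1433 in WT and 899 to 1103 in rd6, most of it *Kit*, which was not called (log2 fold change -0.31, limma q = 0.064). *S100a8*, with a WT mean of 3.32, passed the limit on low values only through rd6, and without it 1 of 3 was higher. Of the dendritic cell markers *Itgax*, also carried by activated microglia, was higher, 1 of 2 tested, and the sum was 170 to 277 in WT and 259 to 444 in rd6. Their part in the receptor values was not tested.

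**Figure D2:**
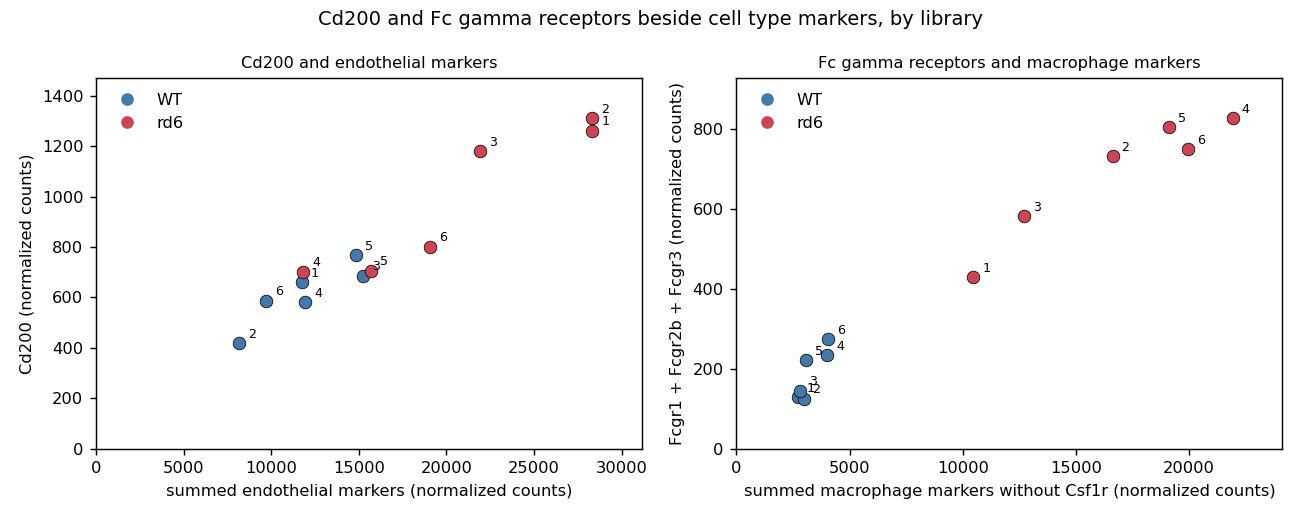
Normalized counts of *Cd200* against the summed endothelial markers (left) and of *Fcgr1*, *Fcgr2b* and *Fcgr3* together against the summed macrophage markers without *Csf1r* (right), linear axes from 0, one point per WT (blue) or rd6 (red) library, numbered by replicate. The receptors lie with the markers at 10454 or more in rd6 and at 4058 or less in WT, and the 3 rd6 libraries with most *Cd200* are those with most endothelial markers.

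The ligand *Cd200* and its receptors differed in level and in certainty. *Cd200* (ENSMUSG00000022661, chr16:45382135-45409053, minus strand), whose product quiets myeloid cells, had 419 normalized counts in the lowest, 624 in the median and 767 in the highest WT library and 702, 990 and 1311 in rd6. Replicates 1, 2 and 3 of rd6, with 1179 to 1311, lay above every WT library, whereas rd6 replicates 4 and 5 lay below the highest one, so the groups overlapped. The mean was 617 ± 119 in WT and 993 ± 287 in rd6 (SD, n = 6 each; log2 fold change 0.66, SE 0.19, limma q = 0.0257). The call was lost without WT replicate 2 (limma q = 0.0561) and without rd6 replicate 1, 2 or 3 (0.0553, 0.0574 and 0.057), and in the 4 male libraries of each genotype alone the log2 fold change was 0.48 (limma q = 0.173).

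Endothelial markers moved with *Cd200*. Of the 11 markers 8 were higher in rd6 and none lower (limma q below 0.05), and their summed level, 8171 to 15255 normalized counts in WT, was 28334, 28332 and 21940 in rd6 replicates 1, 2 and 3 and 11844, 15679 and 19077 in replicates 4, 5 and 6. Per 100 normalized counts of this sum *Cd200* had 4.50 to 6.04 (median 5.14) in WT and 4.20 to 5.93 (median 4.57) in rd6 libraries, ranges that overlapped almost fully. The part of endothelial cells in the *Cd200* value was not tested. Over the 12 libraries, *Tmem204*, which encodes a membrane protein of endothelial cells, had the profile nearest to that of *Cd200* (root mean square difference 0.09 on the log2 scale after centring).

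*Cd200r1* (ENSMUSG00000022667, chr16:44765736-44794978, plus strand), the inhibitory receptor of Cd200, was close to the limit of detection. It had 1 to 6 reads in the WT libraries and 3 to 7 in the rd6 libraries, 2.86 ± 2.11 and 4.92 ± 1.27 normalized counts (SD, n = 6 each), where 3 reads are worth 2.71 to 3.32 normalized counts. The groups overlapped, and a difference was not detectable at this depth (two-sided exact permutation p = 0.0801, and limma q = 0.218 without a limit on low values).

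*Cd200r4* (ENSMUSG00000062082, chr16:44811733-44839150, plus strand), a relative of *Cd200r1* whose product signals through Dap12 and activates, had at most 1 read in every WT library. In rd6 it had 26.7 normalized counts in the lowest, 49.5 in the median and 75.4 in the highest library, from 26 to 79 reads. Replicates 4, 5 and 6 were the higher ones and replicates 1, 2 and 3 the lower ones, the reverse of their order for *Cd200*. Against the floor of 3 reads per WT library its rd6 mean, 49.5 ± 19.9 (SD, n = 6), was at least 16.2-fold higher. No q is given, since the gene was tested only through its rd6 level. The RefSeq promoter of *Cd200r4* (chr16:44820478-44820727), the gene with the largest change of the 10, holds neither of the motifs searched and is printed in lower case throughout. The RefSeq start is also that of a GENCODE transcript but lies 8995 bases after the first start of the gene.
Cd200r4: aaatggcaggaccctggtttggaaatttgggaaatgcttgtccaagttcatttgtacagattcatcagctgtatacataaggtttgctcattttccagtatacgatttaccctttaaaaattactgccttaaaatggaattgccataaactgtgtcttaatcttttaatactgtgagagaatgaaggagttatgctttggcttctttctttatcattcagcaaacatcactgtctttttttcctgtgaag

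*Cd47* and *Sirpa* had high levels in both genotypes and small changes. *Cd47* (ENSMUSG00000055447, chr16:49800533-49915010, plus strand), the signal that keeps phagocytes from engulfing a cell, had 1412, 1518 and 1923 normalized counts in the lowest, median and highest WT library and 1849, 2120 and 2164 in rd6. WT replicate 4 lay apart from the other WT libraries, which did not pass 1572, and above the 2 lowest rd6 libraries, so the groups overlapped through it alone. The mean was 1573 ± 179 in WT and 2052 ± 137 in rd6 (SD, n = 6 each; log2 fold change 0.39, SE 0.07, limma q = 0.00205).

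*Sirpa* (ENSMUSG00000037902, chr2:129592835-129632228, plus strand), the receptor of Cd47, ran from 3702 over a median of 4083 to 4232 normalized counts in WT and from 4319 over 4784 to 5005 in rd6. The groups did not overlap, though the gap between them was small. The mean rose from 3999 ± 236 to 4709 ± 254 (SD, n = 6 each; log2 fold change 0.24, SE 0.05, limma q = 0.00545). The reads of *Sirpa* per read of *Cd47*, 1.93 to 2.88 in WT and 2.02 to 2.71 in rd6, did not differ detectably (log2 difference -0.15, two-sided exact permutation p = 0.197, adjusted 0.263). Without WT replicate 4 the difference was -0.23 (exact permutation, adjusted p = 0.0346).

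*Pirb* (ENSMUSG00000058818, chr7:3711409-3720391, minus strand), the inhibitory receptor for MHC class I, had 13.6 normalized counts in the lowest, 24.6 in the median and 36.7 in the highest WT library and 35.8, 37.9 and 46.8 in rd6. Only WT replicate 6 lay above the lowest rd6 library, and the WT libraries were spread more widely than the rd6 libraries. The mean was 24.5 ± 9.63 in WT and 39.8 ± 4.29 in rd6 (SD, n = 6 each; log2 fold change 0.76, SE 0.25, limma q = 0.0401). The call was lost in 15 of 24 alternatives, among them edgeR on the reads (q = 0.0578) and leaving out WT replicate 2, 4 or 5 or any 1 of the 6 rd6 libraries (limma q of 0.0566 to 0.0751). Of the 100-base stretches of *Pirb* transcripts, 20.7% occur in other genes too, above all *Gm14548* and *Pira2*, so its reads are uncertain.

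The *Pirb* promoter (chr7:3720383-3720632) is printed since it was the only one of the 8 genes with an entry to hold GAGGAAGT, the core bound by PU.1, the factor of myeloid cells. The match, in capitals, lies 120 bases before the start, and 2.44% of all windows hold this motif on either strand. Its GGAA is shared with the ETS side of the composite motif above.
Pirb: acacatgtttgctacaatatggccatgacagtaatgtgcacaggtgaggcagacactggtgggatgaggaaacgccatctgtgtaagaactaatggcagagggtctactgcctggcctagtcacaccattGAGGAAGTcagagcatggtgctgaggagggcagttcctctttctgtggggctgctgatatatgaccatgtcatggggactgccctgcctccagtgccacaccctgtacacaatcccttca

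Levels of different genes were compared per kilobase of exon. In WT the order of the mean level, in normalized counts per kilobase, was *Sirpa* (814), *Cd47* (251), *Cd200* (186), *Fcer1g* (138), *Fcgr3* (64.1), *Fcgr2b* (10.6), *Fcgr1* (5.94), *Pirb* (5.49), *Cd200r1* (0.855) and *Cd200r4* (0.248). In rd6 *Fcer1g* came after *Sirpa* (827 and 959 per kilobase), followed by *Cd47* (327), *Cd200* (299), *Fcgr3* (192), *Fcgr1* (50.9), *Fcgr2b* (38.6), *Cd200r4* (24.2), *Pirb* (8.90) and *Cd200r1* (1.47). Library ranges of neighbours in this order overlapped in WT for *Cd47* and *Cd200*, *Cd200* and *Fcer1g*, *Fcer1g* and *Fcgr3*, *Fcgr2b* and *Fcgr1*, *Fcgr1* and *Pirb*, and *Cd200r1* and *Cd200r4*. In rd6 they overlapped for *Sirpa* and *Fcer1g*, *Cd47* and *Cd200*, *Cd200* and *Fcgr3*, *Fcgr1* and *Fcgr2b*, and *Fcgr2b* and *Cd200r4*. The ligands and *Sirpa* thus stood above the Fc gamma receptors in WT, and the common chain had passed both ligands in rd6.

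**Figure D3:**
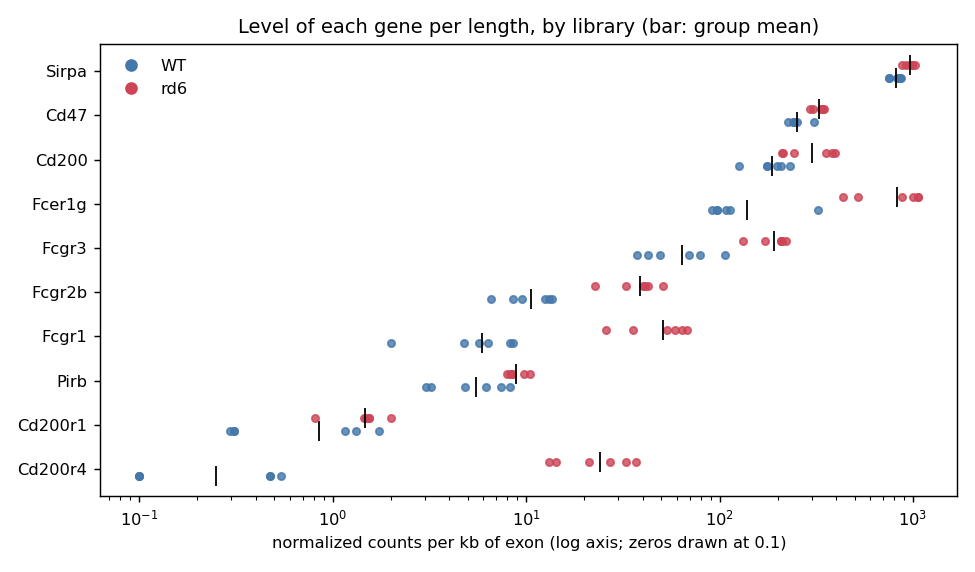
Level of each gene in normalized counts per kilobase of exon (horizontal, log axis, zeros drawn at 0.1) in the WT (blue) and rd6 (red) libraries, with a black bar at each group mean. *Fcer1g* moves from a mean of 138 to 827 and *Cd200r4* from 0.248 to 24.2, while *Sirpa* stays near the top with 814 and 959.

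For the other tested genes too, the gene with the most similar profile over the 12 libraries was sought. By the root mean square difference of centred log2 values, the nearest was *Ncf1* for *Fcer1g* (0.21), *Itgax* for *Fcgr1* (0.38), *Il16* for *Fcgr2b* (0.22), *Slc15a3* for *Fcgr3* (0.19) and *Trem2* for *Cd200r4* (0.43). For *Cd47*, *Sirpa* and *Pirb* they were *Exosc8* (0.06), *Dmap1* (0.05) and *Dydc2* (0.25). The measure is smaller for genes that vary little, so its values do not compare between genes.

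Related genes were taken as 8 lists with 137 genes, of which 100 were tested: 58 were higher and 5 lower in rd6 (limma q below 0.05), and the median log2 fold change was 0.79. Of the 58, 5 (*Fcrl1*, *Btk*, *Cd22*, *Clec5a* and *Siglech*) averaged under 10 normalized counts in WT, passed the limit on low values only through rd6 and so had to be higher, and no q is given for them. Without them and *Fcmr*, which was not called, 53 of 94 were higher and the median was 0.73. With the limit applied to each library rather than to the average, 41 were higher. Among the other Fc receptors, 2 of the 5 with a WT mean of 10 or more were higher and none lower. *Fcrls*, a Fc receptor-like gene of microglia, had a log2 fold change of 2.81 (SE 0.37, limma q = 0.00017), and *Fcrl1* had means of 3.70 normalized counts in WT and 32.3 in rd6. *Fcgrt*, the neonatal receptor that recycles immunoglobulin G, went from 1284 ± 129 up to 2108 ± 240 normalized counts (SD, n = 6 each; log2 fold change 0.71, limma q = 5.5e-05). *Fcgr4*, the remaining activating Fc gamma receptor, was not called, with 7.22 to 30.0 normalized counts in WT and 5.13 to 17.4 in rd6 libraries (log2 fold change -0.23, SE 0.36, limma q = 0.682).

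Downstream of the activating chains, 11 of 14 tested ITAM adaptors and proximal kinases were higher and none lower, or 10 of 13 without *Btk*. Without it 8 were higher under edgeR, and 5 when no library was allowed under 10 normalized counts. *Tyrobp* (log2 fold change 3.94, SE 0.27, limma q = 6.3e-07), and the exchange factor *Vav1* (2.74, 0.33, 7.6e-05) changed most, and the kinase *Btk* had means of 7.91 normalized counts in WT and 54.8 in rd6. Of the 27 genes of the phagocytic machinery 18 were higher and 2 lower. The oxidase subunit *Ncf1* (2.69, 0.30, 3.7e-05), the phosphoinositide kinase *Pik3cg* (2.45, 0.42, 0.00113) and the myosin *Myo1f* (1.97, 0.20, 2.2e-05) led the rise, and the adaptors *Gab2* (-0.59, 0.10, 0.00136) and *Crkl* (-0.24, 0.06, 0.019) fell, in the same order of log2 fold change, SE and limma q. The call of *Crkl* was lost without WT replicate 4 and rd6 replicate 5 (limma q = 0.051).

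On the inhibitory side, 5 of 11 tested phosphatases and adaptors were higher and none lower. *Fyb* (log2 fold change 1.67, SE 0.29, limma q = 0.00108), an adaptor, and *Inpp5d* (1.67, 0.20, 8.5e-05), the phosphatase that Fcgr2b recruits, changed alike, and the adaptor *Dok1* by 0.63 (0.12, 0.00272). *Ptpn11* (log2 fold change -0.14, limma q = 0.264), *Dok2* (-0.04, 0.91) and *Dok3* (-0.41, 0.1) were not called, though *Dok3* was lower without rd6 replicate 5 (-0.50, 0.0389) and without it and WT replicate 4 (-0.54, 0.0324). Among the other inhibitory receptors 9 of 18 tested were higher and 1 lower, 8 of 17 without *Cd22*. This sialic acid receptor had means of 9.09 normalized counts in WT and 117 in rd6. Of the 17, *Havcr2* (3.08, 0.27, 4.8e-06), which encodes Tim-3, and *Cd33* (2.76, 0.28, 1.8e-05) rose most, and *Siglecf* (-0.60, 0.10, 0.00091) fell, again as log2 fold change, SE and limma q.

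Of the 8 tested activating counterparts of the inhibitory receptors, 5 were higher and none lower, 3 of 6 without *Clec5a* and *Siglech*, or 2 when no library was allowed under 10 normalized counts. The largest change of the 8 lists was that of *Trem2*, a lipid receptor that signals through Dap12, with a log2 fold change of 4.37 (SE 0.24, limma q = 1.0e-07). The beta-glucan receptor *Clec7a* (3.35, 0.40, 8.1e-05) and *Cd300c2* (2.44, 0.33, 0.00018) came next in this list. A further 12 of the 20 genes in the table, among them *Pira2* and the *Sirpb1* genes, were below the limit on low values.

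The ligand side was mixed. Of the genes of immunoglobulin, the ligand of the Fc receptors, 3 were tested and 2 were higher: *Ighm* (log2 fold change 1.66, SE 0.22, limma q = 0.00019) and *Igkc* (1.15, 0.33, 0.023). The call of *Igkc* was lost without rd6 replicate 2 (limma q = 0.0539). The constant genes of immunoglobulin G in the table, *Ighg2b*, *Ighg2c* and *Ighg3*, were below the limit on low values. Among the other ligands of inhibitory receptors 5 of 12 tested were higher and 2 lower. *Cd52* (1.70, 0.39, 0.00758), the MHC class I gene *H2-D1* (1.26, 0.18, 0.00031), a ligand of Pirb, and *Thbs1* (1.23, 0.12, 1.5e-05), whose product also binds Cd47, rose most. *Omg* (-1.01, 0.10, 2.1e-05), a myelin ligand of Pirb, and *Vtn* (-0.42, 0.11, 0.0175) fell. In the 4 male libraries of each genotype alone, *Cd52* (limma q = 0.0776), *Igkc* (0.053) and *Vtn* (0.225) were not called.

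**Figure D4:**
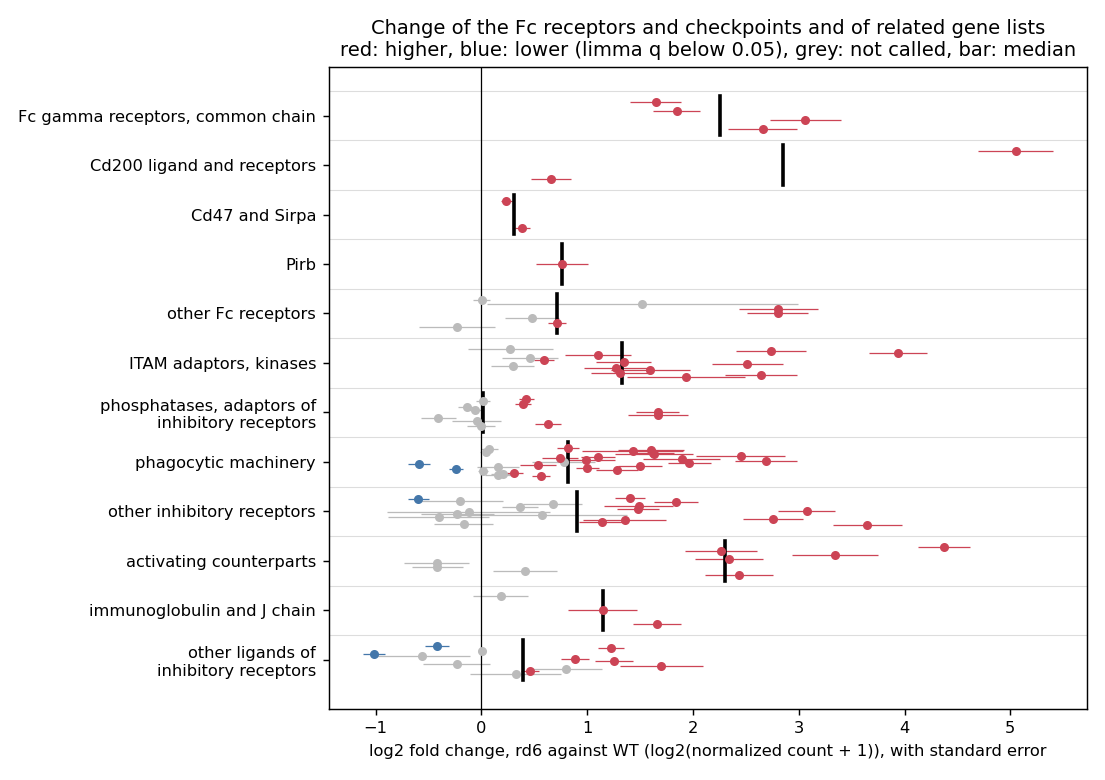
Log2 fold change between rd6 and WT, with the standard error as a line (horizontal), for each tested gene, those that passed the limit on low values only through rd6 included, of the 10 genes' own groups and of the 8 related lists, with higher genes in red, lower genes in blue (limma q below 0.05), genes not called in grey and the median of each group as a black bar. The ITAM adaptors and the activating counterparts lie furthest to the right among the lists, while the median is 0.01 for the phosphatase list and 0.31 for *Cd47* with *Sirpa*.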

How the data were processed

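The 10 genes and all lists were chosen with earlier results of these data known. Stranded total-RNA libraries were sequenced from both ends. The authors aligned to mm10 and counted with Rsubread at standard parameters, and deposited for each gene and library a signal, namely its reads over the DESeq2 size factor. The deposited log2 fold changes, the Wald statistic (a score) and the p-values are the authors' own comparison and were not used. Tool versions and the use of strand in counting are not given in the sources used here. Of 28596 entries, repeated identifiers were dropped, which left 28591 genes. Genes with no symbol (238) hold 0.144% of the reads.

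The values were whole multiples of the value of 1 read (100% within 0.001), so reads were recovered. The values being normalized, limma 3.58.1 (functions lmFit and eBayes, with a trend, in R 4.3.3) served as the main test on log2(normalized count + 1), which understates the change of low genes, over genes that average 10 or more and with the genotype as the only term. Genes were called at a Benjamini-Hochberg adjusted p (q) below 0.05, and counted again with a log2 fold change of at least 0.81, the limit of the study. Ratios of reads, with 0.5 reads added, were tested with two-sided exact permutation tests. The scripts were checked on simulated data. Where a whole group lies at or under the floor of 3 reads, a fold change is a lower bound against that floor. The floor covers counting error only, since amplified reads are not independent molecules. No library was a copy of another.

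The alternatives changed the pseudocount to 0.1 or 10, dropped the filter or asked for at least 10 in every library, or used TMM rescaling, edgeR 4.0.16 with TMM or RLE and DESeq2 1.42.0 on the reads, the replicate number as a block, and leaving out each library. A term for sex, male libraries alone and leaving out WT replicate 4 with rd6 replicate 5 were added after seeing the data. The last of these kept rd6 replicate 1, which also had a high level of *Krt5*. Named are all 10 genes, the 3 largest called changes of each list, called genes against the direction of their list, the highest marker of a list or one at 0, and the nearest profile of each tested gene. All other genes named, among them *Fcgr4*, *Mrc1*, *S100a8* and *Krt5*, were chosen after their values were seen. Listed genes with no entry were not analysed here. Coordinates and exon lengths are from GENCODE M21 (GRCm38) and promoters from RefSeq (GRCm38.p6).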

Additional observations from a re-analysis of the deposited data

Results flagged for a closer look

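The highest and the lowest library of each group of 6 were compared with the nearest other library for the 10 genes and the 4 ratios, 28 groups in all. In 2 of them the gap was wider than Dixon's limit, and chance flags about 1 in 20 groups. *Fcer1g* had 282 normalized counts in WT replicate 6, with the next WT library at 98.6. Leaving that library out kept the call, and over all single libraries left out the log2 fold change of *Fcer1g* was 2.57 to 2.94. *Cd47* had 1923 normalized counts in WT replicate 4, the library with the highest level of *Krt5*, with the next WT library at 1572. Over all single libraries left out, the log2 fold change of *Cd47* was 0.36 to 0.45 and its limma q did not pass 0.00621. Why these libraries were higher was not tested.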

How the results depend on the processing

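Of the 8 tested genes other than *Cd200r4*, 6 to 8 stayed higher and none was lower in each alternative. *Fcer1g*, *Fcgr1*, *Fcgr2b*, *Fcgr3*, *Cd47* and *Sirpa* were called in every alternative that tested them (23 for *Fcgr1*, 24 for the others), *Cd200* in 18 of 24 (limma q up to 0.173) and *Pirb* in 9 of 24 (up to 0.121). With at least 10 normalized counts in every library, 3 of them were higher with the limit on the fold change instead of 4, as *Fcgr1* was then not tested. In male libraries alone, with fewer samples, 1309 genes were higher and 1187 lower over all genes instead of 2024 and 2062, and 3 of the listed related genes were lower instead of 5. Leaving out single libraries gave log2 differences of the *Sirpa* to *Cd47* ratio from -0.23, without WT replicate 4 (adjusted exact permutation p = 0.0346), to -0.12, and the cause was not tested. On the recovered reads, edgeR with TMM called 1981 genes higher and 2085 lower over all genes, and DESeq2 2336 and 2396. No result turned its direction.

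The shared replicate numbers do not pair the libraries, which are of different mice: the deviations of same-numbered libraries had a mean correlation of -0.245 (-0.743 to 0.315), and 1 of 6 pairs was over 0.1. With the number as a block, 6 of the 8 genes were higher, without *Cd200* (limma q = 0.072) and *Pirb* (0.11), and 1453 genes were higher and 1489 lower over all genes. The related lists then had 52 genes higher instead of 58 and 4 lower instead of 5, the calls lost being those of *Syk*, *Blnk*, *Rac2*, *Elmo1*, *Cd300lf*, *Igkc* and *Crkl* (limma q of 0.0501 to 0.101). The log2 differences of *Fcer1g* to *Tyrobp* (-1.28) and of the 3 receptors to *Csf1r* (1.78) then had an adjusted p of 0.0625 by an exact sign-flip test, in which both reached the smallest unadjusted p that 6 pairs allow. Depth limits *Cd200r1* and *Cd200r4* in WT, which lie near the floor.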

Other observations

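Some related genes were under the limit on low values and were set aside from the tests. The 33 listed genes with a read under that limit were compared, the cell marker lists left out. Only *Pdcd1* of these had at most 3 reads in every WT library and more than 3 in every rd6 library. The pattern was found in 0.194% of the 10823 genes with a read under the limit. *Pdcd1* encodes the inhibitory receptor PD-1. It had 0 to 1 reads in WT and 9 to 24 reads in rd6 libraries, 14.2 ± 4.99 normalized counts (SD, n = 6) in rd6, at least 4.66 times what 3 reads per WT library are worth. It was singled out after its values were seen and was not tested. In the marker lists, the B cell gene *Pax5*, also under the limit and not tested, had the same pattern. It had at most 3 reads in every WT library and at least 5.15 normalized counts in every rd6 library. *Cd200r2*, a near relative of *Cd200r4*, had at most 1 read in WT libraries and 11.6 ± 6.12 normalized counts (SD, n = 6) in rd6.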
